A study of Mus musculus with 4 samples.

Results

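The genes described here were 10 genes of glutathione metabolism, metal binding and antioxidant defence: Gstp1, Gstm1, Gstm2, Gsta4, Gpx3, Gpx1, Mt1, Mt2, Mt4 and Hmox1. They were 10 of the 23568 genes kept for analysis in thymic epithelial cells (TECs), and each was matched by its symbol and read as unique molecular identifiers (UMIs) summed over the cells of a class in each library. The set was put together with earlier results of these data known. Gstp1 was included because it was higher in progenitor-like and cTEC-like cells of Cd40-/- RANKL-Ab mice than in those of WT-Control mice, so that difference is given as a description.

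Glutathione is a small thiol that buffers the redox state of the cell. Glutathione S-transferases (Gstp1, Gstm1, Gstm2, Gsta4) join it to reactive and foreign compounds, and glutathione peroxidases (Gpx1 in the cell, Gpx3 secreted) use it to reduce peroxides. Metallothioneins (Mt1, Mt2 and the epithelial Mt4) are short cysteine-rich proteins that bind zinc and copper, and Hmox1 breaks down heme. In the thymus, cortical TECs (cTECs) and medullary TECs (mTECs) support the selection of T cells. RANKL and CD40 ligand are signals from thymocytes that drive the maturation of mTECs.

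EPCAM+ CD45- TER119- cells of C57BL/6 mice aged 6 weeks were profiled by droplet-based single-cell RNA sequencing in 4 groups of 1 library each, and each library pooled 3 mice. WT-Control and Cd40-/- Control mice had received rat IgG, and WT-RANKL-Ab and Cd40-/- RANKL-Ab mice a neutralizing antibody to RANKL, at 5 mg/kg and 2 weeks before analysis. The Cd40-/- mice lack the gene in every cell, not in TECs alone. With 1 library per condition there was no replicate, so no difference between conditions could be tested, and the 95% intervals below cover counting error only.

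The libraries held between 19175068 and 95607338 UMIs, and 10218 and 7164 cells of the Control and RANKL-Ab libraries of WT mice and 8591 and 2082 cells of those of Cd40-/- mice passed the filters. Sets of 4 values below keep this order, WT before Cd40-/- and Control before RANKL-Ab. Cd40, the gene deleted in the knockout, was at 110.0, 28.8, 5.75 and 4.75 counts per 1000000 UMIs (CPM), so a low level of reads at this locus was still counted in both Cd40-/- libraries. The 2 Cd40-/- libraries shared 205 cell barcodes after filtering, whereas the other pairs shared between 17 and 116. In 180 of these 205 the Cd40-/- RANKL-Ab barcode held at least 20 times as many UMIs, with medians of 723 and 24073 UMIs, and 83 of the 741 cTEC-like and 3 of the 186 progenitor-like cells of Cd40-/- Control had a shared barcode. Without the shared barcodes the log2 ratio of Gstp1 between Cd40-/- RANKL-Ab and WT-Control was 2.21 in progenitor-like and 1.97 in cTEC-like cells, against 2.21 and 2.02 with them. This ratio does not use Cd40-/- Control, where the shared barcodes held few UMIs, so it does not check the Gstp1 level of that library. In cTEC-like cells of Cd40-/- Control, 3 of 9 members were higher than WT-Control and 1 lower, past the fold used below. These counts were the same with and without the shared barcodes.

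Cells were placed into 13 classes by marker genes. The libraries had 105, 354, 186 and 158 progenitor-like cells and 137, 534, 741 and 355 cTEC-like cells. They had 3208, 3377, 1956 and 931 CCL21+ mTEC-like cells and 3239, 279, 1580 and 2 Aire+ mTEC-like cells. Ratios were computed only where both libraries had at least 30 cells of a class, so Aire+ mTEC-like, TA-TEC-like, microfold-like, keratinocyte-like, enterohepatic-like, neuroendocrine-like and ciliated-like cells gave none for Cd40-/- RANKL-Ab. Cd40 is itself 1 of the 6 markers of the Aire+ gate, which bears on the Cd40-/- cells placed there. Gstm2 and Gpx3 were each among the 10 genes that best marked a class, progenitor-like and CCL21+ mTEC-like cells respectively, although neither was used in the gates.

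The members were spread over the TEC classes in different ways. Gstm2 was at 278.2, 295.0, 293.1 and 294.5 CPM in progenitor-like cells and between 29.3 and 54.3 CPM in cTEC-like cells. Gsta4, whose protein acts on lipid aldehydes, was at 1112.2, 785.7 and 1072.9 CPM in keratinocyte-like cells of the first 3 libraries, and in enterohepatic-like cells of the Control libraries it was at 940.0 (WT) and 564.6 CPM (Cd40-/-). Gpx1 was at 2159.7, 2288.4 and 1682.5 CPM in microfold-like cells of the first 3 libraries. Gpx3 was at 1235.0, 1154.2, 701.6 and 1616.6 CPM in CCL21+ mTEC-like cells and at 839.7, 892.6 and 733.3 CPM in neuroendocrine-like cells of the first 3 libraries, the second value from 29 cells.

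**Figure D1:**
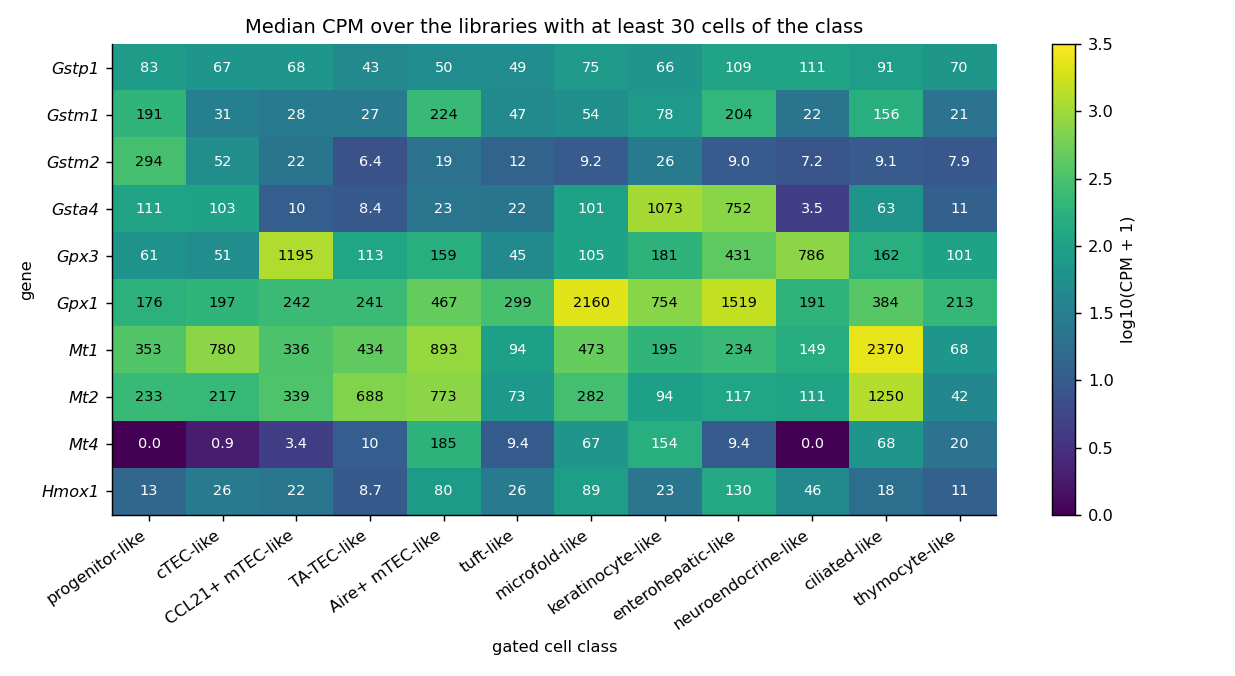
Median CPM (color, log10 scale, value printed in each cell) of the 10 members in 12 gated classes, over the libraries with at least 30 cells of the class. Gstm2 is brightest in progenitor-like cells, Gsta4 in keratinocyte-like cells, Gpx3 in CCL21+ mTEC-like cells, Gpx1 in microfold-like cells, and Mt1 and Mt2 in ciliated-like cells, and the Gstp1 medians run from 43.4 CPM in TA-TEC-like to 111.3 CPM in neuroendocrine-like cells.

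Gstp1, which encodes the pi-class transferase, lies on chromosome 19 at 4035407-4037985 (GRCm38, minus strand) and has 7 exons. In WT-Control its level was similar in most classes, from 40.2 CPM (interval 27.2 to 57.5) in keratinocyte-like to 69.3 CPM (49.3 to 94.8) in ciliated-like cells. Neuroendocrine-like cells had 104.1 CPM (58.3 to 171.7) and enterohepatic-like cells 143.7 CPM (109.9 to 184.6), and the intervals of neighboring classes in the order of levels overlapped. Progenitor-like cells had 57.9, 47.8, 108.1 and 267.4 CPM in the 4 libraries, from 46, 107, 104 and 354 UMIs. cTEC-like cells had 52.7, 40.6, 82.0 and 214.5 CPM, from 72, 189, 416 and 813 UMIs. In both classes the order was the same, with WT-RANKL-Ab lowest, Cd40-/- Control above WT-Control, and Cd40-/- RANKL-Ab highest. The intervals of WT-RANKL-Ab and WT-Control overlapped, and that of Cd40-/- RANKL-Ab overlapped none of the others. With cells thinned to 1000 UMIs, the order of both Control libraries turned in cTEC-like cells (log2 ratio -0.51, from 38 and 10 UMIs), and WT-RANKL-Ab came above WT-Control in progenitor-like cells (0.66, from 21 and 4 UMIs).

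Cd40-/- RANKL-Ab was 4.62-fold above WT-Control in progenitor-like cells (log2 ratio 2.21, interval 1.76 to 2.68) and 4.07-fold in cTEC-like cells (2.02, 1.68 to 2.39), the values by which the gene was chosen. Against Cd40-/- Control it was 2.47-fold and 2.61-fold higher, and against WT-RANKL-Ab 5.60-fold and 5.29-fold.

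The difference was not limited to these classes. CCL21+ mTEC-like cells had 54.3, 38.0, 80.8 and 195.4 CPM, tuft-like cells 44.8, 35.9, 54.1 and 250.2 CPM, and cells with genes of both thymocytes and cTECs 63.1, 45.6, 87.0 and 199.4 CPM. Thymocyte-like cells, which are not epithelial, had 58.0, 46.0, 82.2 and 179.8 CPM, and cells that passed no gate 58.9, 37.3, 74.0 and 208.1 CPM. Cd40-/- RANKL-Ab was thus highest in all 7 groups of cells with at least 30 cells in every library, and the log2 ratio to WT-Control ranged from 1.63 in thymocyte-like to 2.48 in tuft-like cells. Over all cells of a library Gstp1 was at 52.4, 38.8, 73.8 and 205.8 CPM.

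**Figure D2:**
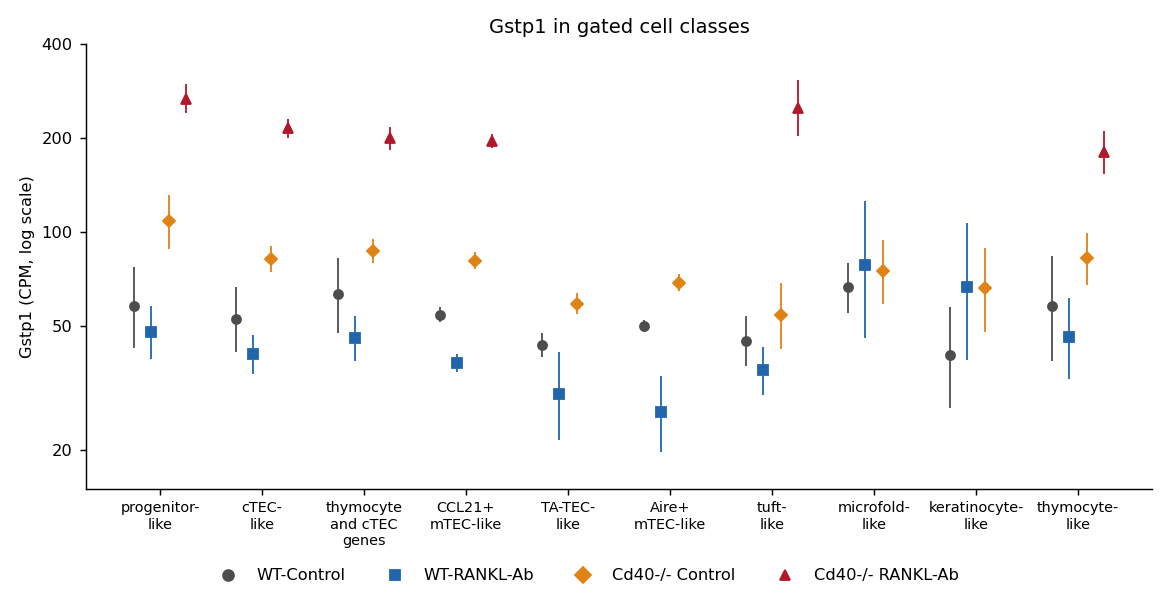
Gstp1 level (CPM, log axis) in 10 gated classes, with 1 point per library, exact Poisson 95% bars and no point where a library has under 30 cells. The Cd40-/- RANKL-Ab points, between 179.8 and 267.4 CPM, lie above all others in each class where they are drawn, and WT-RANKL-Ab lies below WT-Control except in microfold-like and keratinocyte-like cells.

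Without thinning, the share of cells with a Gstp1 UMI was 30.5%, 25.7%, 43.5% and 85.4% of progenitor-like cells. After each cell was thinned to 1000 UMIs the share was 3.81%, 5.46%, 8.24% and 27.2% in progenitor-like cells, at median depths of 6060, 5903.5, 4628 and 7696.5 UMIs before thinning. In thymocyte-like cells, at median depths between 1377 and 3749.5 UMIs, the thinned shares were 3.23%, 2.11%, 5.13% and 10.3%. In each of the first 3 libraries the intervals of both classes overlapped, so the share in progenitor-like cells did not stand above that in thymocyte-like cells there. Whether thymocyte-like cells lack Gstp1 was not tested, so the overlap does not separate background from a low level in both classes. In Cd40-/- RANKL-Ab the share in progenitor-like cells (20.4 to 34.9%) lay above that in thymocyte-like cells (6.21 to 15.8%).

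Gstp1 has a near-identical neighbor, Gstp2, 2299 bases away on the same strand. Of the 411 windows of 90 bases in the last 500 bases of the Gstp1 transcript, 280 (68.1%) were also found in transcripts of Gstp2 or of the pseudogene Gstp-ps, so Gstp1 counts are uncertain to the extent that reads could not be assigned to 1 gene. None of the other 9 members shared such a window with another gene. Gstp2 had few UMIs. It was at 0.732, 1.503, 7.10 and 10.6 CPM in cTEC-like cells, from 1, 7, 36 and 40 UMIs, and in CCL21+ mTEC-like cells at 0.984, 1.16, 2.42 and 4.23 CPM, the same order as Gstp1. In progenitor-like cells it had 0, 2, 4 and 1 UMIs. Gstp3, further along the cluster, was at 10.6, 6.08, 6.19 and 3.30 CPM in CCL21+ mTEC-like cells, lowest where Gstp1 was highest. The part of shared sequence in the result was not tested. The labels and the methods name different versions of the library kit, read lengths per library are not given in the sources used here, and the Gstp1 difference was present in thymocyte-like cells as well.

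The immediate early and heat shock genes Fos, Jun, Junb, Atf3, Egr1, Ier2, Hspa1a, Hspa1b and Dnajb1, which respond to tissue dissociation among other stimuli, moved in part in the same direction. Their summed level was 2340, 3503, 5785 and 6587 CPM in progenitor-like cells, with 9 of 9 genes detected in every library, and 1048, 1233, 1710 and 2103 CPM in cTEC-like cells. Both sums were lowest in WT-Control and highest in Cd40-/- RANKL-Ab, with WT-RANKL-Ab above WT-Control. For Gstp1 WT-RANKL-Ab was below WT-Control, but their intervals overlapped, and this order turned in thinned progenitor-like cells. A set of 5 glucocorticoid-induced genes summed to 184, 173, 218 and 288 CPM in progenitor-like and to 143, 143, 130 and 151 CPM in cTEC-like cells. Fibroblast markers summed to 135, 91.5, 52.0 and 137 CPM in progenitor-like cells, with 5 or 6 of 6 genes detected (Pdgfra at 0 in WT-Control, Pdgfrb at 0 in Cd40-/- Control), and macrophage markers to 16.4, 4.91, 6.24 and 6.04 CPM with 2 to 4 of 6 detected. The part of these gene sets in the Gstp1 result was not tested.

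The stretch of sequence before the RefSeq start of Gstp1 is shown because it holds the AP-1 site TGANTCA, the target of the Fos and Jun proteins. Capitals mark the site. The GENCODE start of the gene position given above lies further upstream than the RefSeq start, so most of the site falls inside the gene as GENCODE places it. The sequence is from RefSeq (GRCm38.p6), chr19:4037980-4038162, minus strand, 183 bases written 5′ to 3′.
Gstp1: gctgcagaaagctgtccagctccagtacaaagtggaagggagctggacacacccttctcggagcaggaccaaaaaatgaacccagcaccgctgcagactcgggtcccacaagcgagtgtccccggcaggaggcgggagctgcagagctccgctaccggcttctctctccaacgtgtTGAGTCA
Of 32851 promoters of 250 bases before a start, 6.75% held this motif on either strand. Promoter sequences were found for 8 of the 10 members, and among these the motif was also present in Mt2. The core of the antioxidant response element, TGACNNNGC, was found in 10.2% of promoters and in that of Mt2, where it overlaps the AP-1 match. A match describes the letters only.

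By the likeness of log2(CPM + 1) over 42 sums of class and library, the genes closest to Gstp1 among 12985 included Rnasek (Pearson r = 0.63), Son (0.63), Grcc10 (0.61) and Btf3l4 (0.60). Gstp1 had r between -0.26 and 0.10 with the other 9 members. Sums from 1 library share its depth and handling, so these values carry no test.

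Gstm1 and Gstm2 encode mu-class transferases and lie 25801 bases apart on chromosome 3, Gstm2 at 107981702-107986453 and Gstm1 at 108012255-108017973 (GRCm38). In progenitor-like cells, where Gstm2 stood out, neither differed between libraries by more than counting error. The log2 ratio of Gstm2 to WT-Control was 0.08 in each of the other libraries (intervals -0.14 to 0.31, -0.18 to 0.34 and -0.16 to 0.33). Gstm1 was at 171.2, 191.0, 191.2 and 207.7 CPM. After thinning, Gstm2 UMIs were found in 22.9%, 24.7%, 23.6% and 23.4% of progenitor-like cells and in 0 of 62, 0 of 190, 1 of 234 and 1 of 175 thymocyte-like cells, with upper bounds of 5.78%, 1.92%, 2.36% and 3.14%, so Gstm2 stood above the background of free RNA.

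In cTEC-like cells Gstm2 was lower in WT-Control than in the other libraries, with 29.3, 54.3, 53.6 and 50.1 CPM from 40, 253, 272 and 190 UMIs. With cells thinned to 1000 UMIs, the log2 ratio of Cd40-/- RANKL-Ab to WT-Control turned to -0.48, from 10 and 5 UMIs. CCL21+ mTEC-like cells had Gstm2 at 14.1, 20.8, 23.4 and 32.9 CPM, and Cd40-/- RANKL-Ab was 2.34-fold above WT-Control (log2 ratio 1.22, 0.98 to 1.47). The summed progenitor markers in the same CCL21+ mTEC-like cells were 637, 690, 984 and 1747 CPM, in the same order, and their part in the Gstm2 difference was not tested. Gstm1 was at 242.6, 93.5 and 223.7 CPM in Aire+ mTEC-like cells of the first 3 libraries, 2.59-fold lower in WT-RANKL-Ab than in WT-Control. After thinning, Gstm1 and Gstm2 were both seen in 5.71%, 3.16%, 4.95% and 6.33% of progenitor-like cells, and their correlation there was between -0.06 and 0.14.

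Gsta4, on chromosome 9 at 78182774-78209349 (GRCm38), had log2 ratios to WT-Control between -0.41 and 0.00 in progenitor-like and cTEC-like cells. Its level in CCL21+ mTEC-like cells was 15.8, 9.14, 11.04 and 2.25 CPM, from 353, 212, 132 and 17 UMIs. Cd40-/- RANKL-Ab was 7.03-fold lower than WT-Control there (log2 ratio -2.81, -3.61 to -2.11). Thymocyte-like cells had between 4.55 and 20.7 CPM of Gsta4 over the libraries, and the levels in CCL21+ mTEC-like cells lay within or below this range. In tuft-like cells Gsta4 had 78, 50 and 43 UMIs in the first 3 libraries and 0 in Cd40-/- RANKL-Ab, at least 3.75-fold lower than WT-Control when the 0 is set to a floor of 3 UMIs per library.

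Gpx3, the secreted peroxidase, lies on chromosome 11 at 54902453-54910377 (GRCm38). It was lowest in Cd40-/- Control in CCL21+ mTEC-like cells, at 701.6 CPM against 1235.0, 1154.2 and 1616.6 CPM in WT-Control, WT-RANKL-Ab and Cd40-/- RANKL-Ab. The Cd40-/- Control library was also lowest in cTEC-like cells (64.4, 54.5, 25.2 and 47.2 CPM). The ratio of Cd40-/- Control to WT-Control was -1.22 in progenitor-like, -1.35 in cTEC-like, -0.82 in CCL21+ mTEC-like, -0.65 in Aire+ mTEC-like, -1.57 in tuft-like, -1.17 in microfold-like, -1.90 in TA-TEC-like and -0.83 in ciliated-like cells, all log2 and all with intervals below 0. It did not pass 1.5-fold in enterohepatic-like (-0.48) and neuroendocrine-like cells (-0.20), and keratinocyte-like cells went the other way, from 181.1 CPM in WT to 302.8 CPM in Cd40-/- Control mice. Gpx3 was also lower past 1.5-fold in thymocyte-like cells, cells with genes of both thymocytes and cTECs and cells that passed no gate. Thymocyte-like cells reached 269.3 CPM of Gpx3 over the libraries. Progenitor-like, cTEC-like, tuft-like, microfold-like, Aire+ mTEC-like and ciliated-like cells stayed below this, and CCL21+ mTEC-like cells lay above it. TA-TEC-like cells reached 359.5 CPM. Whether background RNA had a part in these ratios was not tested.

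Within CCL21+ mTEC-like cells, Gpx3 went with Mgp, the gene for matrix Gla protein. Cells with at least 10 Mgp UMIs per 10000 had 2128.5, 2508.3, 1098.2 and 2192.6 CPM of Gpx3, and the others 450.4, 528.6, 236.1 and 868.8 CPM. Gstp1 differed little across this split, with 57.0, 40.5, 87.0 and 199.2 CPM in the first set of cells and 51.9, 36.8, 73.6 and 190.3 CPM in the other. After thinning, Gpx3 was found in 44.5%, 38.4%, 34.3% and 56.9% of CCL21+ mTEC-like cells, in 2.86 to 8.06% of thymocyte-like cells and in 3.16 to 5.71% of progenitor-like cells. The share in progenitor-like cells was thus within the range of that in thymocyte-like cells. In progenitor-like cells, 92.6 to 100% of the Gpx3 UMIs came from the 10% of cells with the most. Whether these UMIs are background RNA or come from a few cells rich in Gpx3 was not tested.

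Gpx1, the cytosolic peroxidase, on chromosome 9 at 108338903-108340343 (GRCm38), was at 205.2, 179.4, 149.6 and 172.9 CPM in progenitor-like, 239.4, 203.3, 178.1 and 190.0 CPM in cTEC-like and 277.4, 230.1, 228.7 and 254.3 CPM in CCL21+ mTEC-like cells. WT-Control was highest in each of these 3 classes and the log2 ratios to it lay between -0.46 and -0.13, none past 1.5-fold.

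Mt4, Mt2 and Mt1 lie in this order on chromosome 8 (GRCm38, plus strand) at 94137197-94139031, 94172664-94173568 and 94179082-94180327. Mt2 and Mt1 are 5513 bases apart, and Mt4 33632 bases from Mt2. Mt1 and Mt2 had alike levels over the 42 sums (r = 0.85), and each was the gene closest to the other among 12985. Mt4 had r = 0.35 with Mt1 and 0.43 with Mt2. The sequences before the starts of Mt2 and Mt1 are shown because these 2 genes had like patterns. Capitals mark the core of the metal response element, TGCACNC or TGCGCNC on either strand, the target of the zinc sensor Mtf1. Both are from RefSeq (GRCm38.p6), written 5′ to 3′ on the plus strand: Mt2 at chr8:94172368-94172617 and Mt1 at chr8:94178839-94179081.
Mt2: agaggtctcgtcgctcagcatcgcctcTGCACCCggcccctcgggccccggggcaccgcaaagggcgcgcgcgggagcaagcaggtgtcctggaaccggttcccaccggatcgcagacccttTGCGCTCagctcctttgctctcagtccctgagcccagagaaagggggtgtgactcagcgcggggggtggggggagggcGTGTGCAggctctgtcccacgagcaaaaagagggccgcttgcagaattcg
Mt1: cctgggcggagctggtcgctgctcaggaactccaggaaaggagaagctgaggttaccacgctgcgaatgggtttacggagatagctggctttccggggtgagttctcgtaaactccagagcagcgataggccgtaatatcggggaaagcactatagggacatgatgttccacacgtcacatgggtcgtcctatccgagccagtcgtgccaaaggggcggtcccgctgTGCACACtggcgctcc
Within the 250 bases before the RefSeq start Mt2 had 3 matches and Mt1 1 match, and bases after that start were not searched. The core was found in 21.4% of the 32851 promoters, and also in those of Mt4 and Gstm1 among the members.

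In progenitor-like cells Mt1 was at 293.3, 268.7, 412.6 and 533.2 CPM and Mt2 at 222.8, 210.2, 243.2 and 342.9 CPM. Cd40-/- RANKL-Ab was 1.82-fold above WT-Control for Mt1 (log2 ratio 0.86, 0.65 to 1.08) and 1.54-fold for Mt2 (0.62, 0.37 to 0.88), the latter below 1.5-fold with TMM factors (0.52). In cTEC-like cells the libraries were closer, with 786.3, 774.0, 755.7 and 850.6 CPM of Mt1 and 273.8, 167.7, 195.0 and 238.5 CPM of Mt2. Thymocyte-like cells had 615.2, 60.0, 76.9 and 27.3 CPM of Mt1, highest in WT-Control. After thinning, Mt1 was found in 24.8%, 16.7%, 23.1% and 28.5% of progenitor-like and in 16.1%, 1.58%, 3.42% and 3.43% of thymocyte-like cells, and the intervals of the 2 classes overlapped only in WT-Control.

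In CCL21+ mTEC-like cells, Mt1 was at 267.2, 115.6, 405.4 and 565.0 CPM and Mt2 at 295.7, 92.1, 382.3 and 527.3 CPM, lowest in WT-RANKL-Ab and highest in Cd40-/- RANKL-Ab. RANKL-Ab against Control was thus lower in WT (log2 ratio -1.21 for Mt1 and -1.68 for Mt2) and higher in Cd40-/- mice (0.48 and 0.46). The difference between these ratios was not tested, since each rests on 1 library a side. In Aire+ mTEC-like cells WT-RANKL-Ab was again lowest, with 892.5, 491.0 and 966.8 CPM of Mt1 in the first 3 libraries, and microfold-like cells had 472.7, 147.6 and 936.3 CPM.

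Mt1 and Mt2 also went together from cell to cell. In thinned Aire+ mTEC-like cells of WT-Control, Mt2 was found in 60.1% of the cells with Mt1 and in 19.2% of those without it, and the correlation of their log counts was 0.60. The Cd40-/- Control library gave 0.57 and the WT-RANKL-Ab library 0.65. In progenitor-like cells the correlation was weaker, at 0.08, 0.29, 0.27 and 0.40.

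Mt4, which is known from stratified epithelia, was found in few cells. Aire+ mTEC-like cells had 184.6, 15.4 and 227.7 CPM in the first 3 libraries, from 7022, 31 and 3463 UMIs, so WT-RANKL-Ab was 12.0-fold lower than WT-Control. The UMIs sat in 10.7%, 1.79% and 10.3% of the cells. Keratinocyte-like cells had 320, 0 and 100 UMIs, from 120, 38 and 137 cells. WT-RANKL-Ab was at least 36.6-fold lower than WT-Control there at the floor of 3 UMIs, which does not cover the sampling of few cells. CCL21+ mTEC-like cells had 6.75, 0.129, 26.3 and 0 CPM, from 151, 3, 314 and 0 UMIs. Cd40-/- RANKL-Ab was there at least 17.04-fold lower than WT-Control and at least 66.2-fold lower than Cd40-/- Control. Thymocyte-like cells had between 0 and 62.1 CPM of Mt4 over the libraries, and the levels in CCL21+ mTEC-like cells lay within this range. Of the 314 UMIs in Cd40-/- Control, 303 came from cells with fewer than 10 Mgp UMIs per 10000 (55.1 CPM). The other 11 came from cells with more Mgp (1.70 CPM). In progenitor-like cells Mt4 had 0 UMIs in all 4 libraries, where the floor of 3 UMIs stands at 3.78, 1.34, 3.12 and 2.27 CPM. Over all cells Mt4 was at 104.1, 4.996, 93.4 and 0.052 CPM, and the libraries with low Mt4 were the ones with few Aire+ mTEC-like cells.

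**Figure D3:**
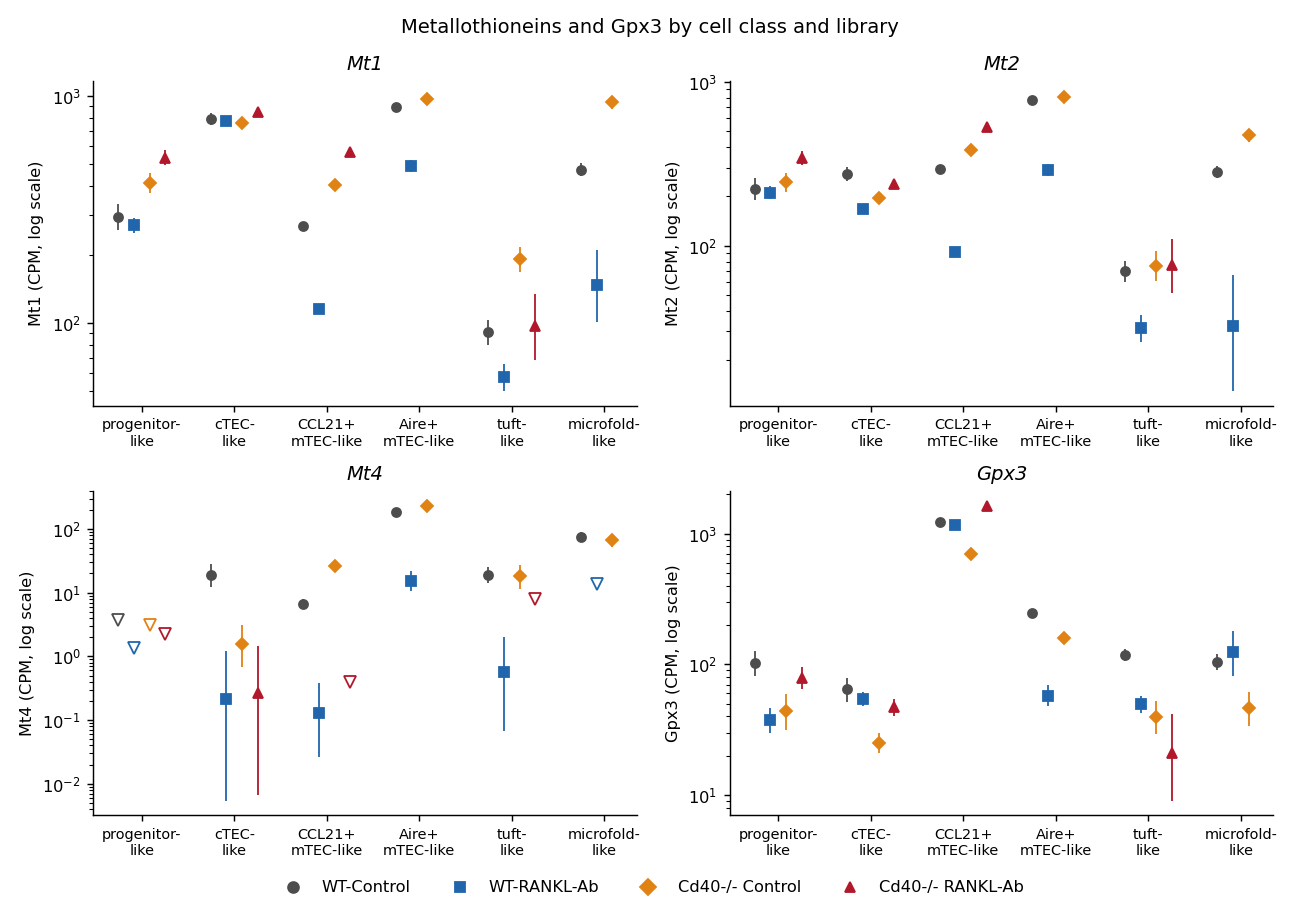
Level (CPM, log axis) of Mt1, Mt2, Mt4 and Gpx3 in 6 gated classes, 1 point per library with exact Poisson 95% bars, and an open triangle at the limit that a count of 0 allows. Mt1 and Mt2 are lowest in WT-RANKL-Ab in CCL21+, Aire+, tuft-like and microfold-like cells, Mt4 is at 0 in progenitor-like cells, and Gpx3 is between 701.6 and 1616.6 CPM in CCL21+ mTEC-like cells.

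Hmox1, heme oxygenase 1, on chromosome 8 at 75093621-75100589 (GRCm38), was low in most TECs. It stood at 22.7, 25.3, 26.0 and 25.9 CPM in cTEC-like cells, where the log2 ratios to WT-Control lay between 0.16 and 0.20 with intervals that spanned 0. CCL21+ mTEC-like cells had Hmox1 at 20.97, 21.1, 33.0 and 23.9 CPM, and Cd40-/- Control was 1.58-fold above WT-Control. Progenitor-like cells held only 7, 34, 24 and 15 Hmox1 UMIs. Aire+ mTEC-like cells had 80.3, 62.7 and 119.3 CPM in the first 3 libraries.

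A count of genes past 1.5-fold was made over the genes whose UMIs in the pair of libraries summed to 50 or more. Cd40-/- RANKL-Ab against WT-Control gave 3 members higher (Gstp1, Mt1, Mt2) and 0 lower of 8 in progenitor-like cells, where 13.3% of all genes were higher and 5.09% lower. In cTEC-like cells 2 were higher (Gstp1, Gstm2) and 0 lower of 9, where 17.9% and 4.07% of all genes passed. In CCL21+ mTEC-like cells 4 were higher (Gstp1, Gstm2, Mt1, Mt2) and 2 lower (Gsta4, Mt4) of 10, with 16.3% and 11.9% of all genes. In tuft-like cells 1 was higher (Gstp1) and 4 lower (Gsta4, Gpx3, Gpx1, Mt4) of 9, with 15.8% and 14.9%. Since Gstp1 was chosen on the first 2 of these comparisons, its call adds nothing to them. The median log2 ratio of the members counted was 0.18, 0.10 and 0.29 in progenitor-like, cTEC-like and CCL21+ mTEC-like cells, beside 0.08, 0.15 and 0.11 over all genes. With TMM factors, which bring the median over all genes to between -0.02 and 0.01, the share of all calls that were higher went from 72.3% to 54.6%, from 81.5% to 62.8% and from 57.8% to 47.0% in these classes. Under TMM the members higher in progenitor-like cells were 2, since Mt2 went from 0.62 to 0.52 on the log2 scale, below 1.5-fold, and 1 member (Gpx3) was lower in cTEC-like cells.

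WT-RANKL-Ab against WT-Control gave 1 member lower (Gpx3) and 0 higher of 8 in progenitor-like cells (background 4.3% lower, 12.9% higher). It gave 1 higher (Gstm2) and 1 lower (Mt2) of 9 in cTEC-like cells (13.8% and 5.07%), and 4 lower (Gsta4, Mt1, Mt2, Mt4) and 0 higher of 10 in CCL21+ mTEC-like cells (8.22% lower, 10.7% higher). In Aire+ mTEC-like cells 6 of 10 were lower and 0 higher, where 28.5% and 14.4% of all genes were. In tuft-like cells 6 of 10 were lower (Gstm1, Gsta4, Gpx3, Mt1, Mt2, Mt4) and 0 higher, with 6.12% and 11.4%. Of these, Gstm1, Gpx3, Mt1 and Mt2 were also lower past 1.5-fold in thymocyte-like cells. Over the libraries, tuft-like levels of all but Gsta4 lay within or below the thymocyte-like range. Gsta4 reached 34.2 CPM in tuft-like and 20.7 CPM in thymocyte-like cells. Cd40-/- Control against WT-Control gave 1 higher (Gstp1) and 1 lower (Gpx3) of 8 in progenitor-like cells (23.7% and 7.66%), 3 higher (Gstp1, Gstm1, Gstm2) and 1 lower (Gpx3) of 9 in cTEC-like cells (27.0% and 6.94%), and 4 higher (Gstm2, Mt1, Mt4, Hmox1) and 1 lower (Gpx3) of 10 in CCL21+ mTEC-like cells (19.7% and 7.79%). It gave 0 higher and 1 lower (Gpx3) of 10 in Aire+ mTEC-like (16.1% and 8.87%) and 1 higher (Mt1) and 1 lower (Gpx3) of 9 in tuft-like cells (18.0% and 8.7%). With TMM factors the share of all calls that were higher went from 75.0% to 51.3%, 73.1% to 56.1% and 56.6% to 35.6% for WT-RANKL-Ab, and from 75.6% to 48.4%, 79.5% to 54.4% and 71.7% to 49.6% for Cd40-/- Control, in progenitor-like, cTEC-like and CCL21+ mTEC-like cells. Under TMM the members of Cd40-/- Control were 1 higher and 3 lower in progenitor-like, 2 higher and 3 lower in cTEC-like and 1 higher (Mt4) and 2 lower in CCL21+ mTEC-like cells, where Gstm2, Mt1 and Hmox1 went below 1.5-fold, and WT-RANKL-Ab had 5 lower in CCL21+ mTEC-like cells. These comparisons share the WT-Control library, so a value of WT-Control that stands apart moves all of them.

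The next comparisons leave out WT-Control but use the same Cd40-/- RANKL-Ab values by which Gstp1 was chosen. Cd40-/- RANKL-Ab against Cd40-/- Control had 2 members higher (Gstp1, Gpx3) and 0 lower of 8 in progenitor-like cells (5.5% and 11.3% of all genes), and 2 higher (Gstp1, Gpx3) and 1 lower (Gstm1) of 9 in cTEC-like cells (4.78% and 6.62%). In CCL21+ mTEC-like cells 2 were higher (Gstp1, Gpx3) and 3 lower (Gstm1, Gsta4, Mt4) of 10 (9.24% and 12.8%). TMM factors moved the share of all calls that were higher from 32.7% to 53.7% and from 41.9% to 56.7% in progenitor-like and cTEC-like cells. Cd40-/- RANKL-Ab against WT-RANKL-Ab had 4 higher (Gstp1, Gpx3, Mt1, Mt2) and 0 lower of 8 in progenitor-like cells (5.85% and 5.9%), and 1 higher (Gstp1) and 0 lower of 9 in cTEC-like cells (6.59% and 3.74%). In CCL21+ mTEC-like cells 4 were higher (Gstp1, Gstm2, Mt1, Mt2) and 1 lower (Gsta4) of 9 (11.0% and 12.8%).

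**Figure D4:**
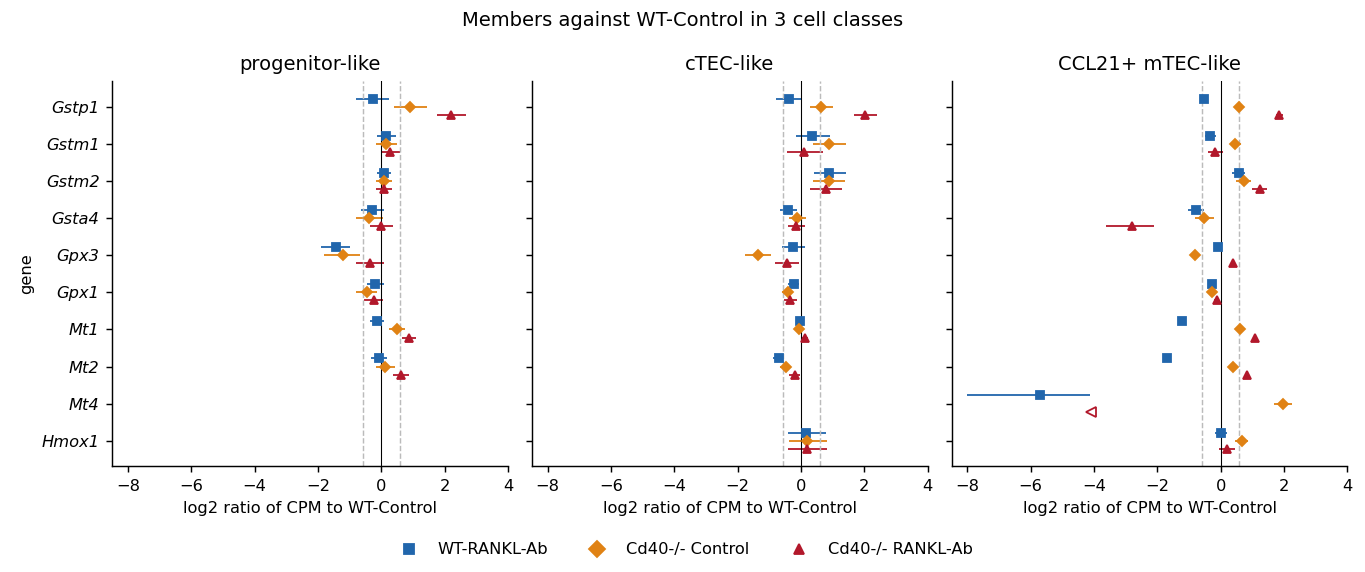
Log2 ratio of CPM to WT-Control (x axis) for the members (y axis) with at least 50 UMIs in 3 classes. There is 1 point per library with exact 95% bars for counting error, and dashed lines mark 1.5-fold. An open triangle stands for a count of 0 set to the floor of 3 UMIs. Gstp1 in Cd40-/- RANKL-Ab lies between 1.85 and 2.21 in the 3 classes, and Mt1, Mt2 and Mt4 of CCL21+ mTEC-like cells spread most between libraries.

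A wider list of 60 genes held enzymes of glutathione synthesis, the other transferases and peroxidases, peroxiredoxins, thioredoxins and regulators such as Nfe2l2 and Keap1. Cd40-/- RANKL-Ab against WT-Control gave 5 higher and 0 lower of the 33 that could be counted in progenitor-like cells, where 13.3% of all genes were higher and 5.09% lower. In cTEC-like cells it gave 3 higher and 0 lower of 41, where the shares were 17.9% and 4.07%. Their median log2 ratios were -0.03 and -0.03, against 0.08 and 0.15 over all genes. The 3 largest in progenitor-like cells were Nqo1, a quinone reductase (75.5, 114.2, 145.5 and 142.7 CPM), Gsr, which regenerates reduced glutathione (61.7, 105.8, 109.1 and 111.8 CPM), and Gstz1 (30.2, 37.0, 39.5 and 50.6 CPM). In cTEC-like cells they were Gstt1 (10.2, 16.3, 19.1 and 17.1 CPM), Gstt3 (15.4, 19.97, 23.7 and 25.6 CPM) and Gsr (84.2, 119.4, 141.8 and 134.3 CPM). WT-Control was lowest of the 4 libraries for each of these, which their choice by the rise over WT-Control favors. In CCL21+ mTEC-like cells 4 of 54 were higher and 10 lower, beside 16.3% and 11.9% of all genes.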

How the data were processed

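The authors sequenced droplet libraries of sorted TECs, aligned the reads (genome mm10) and made a table of UMI counts. The matrix headers name Cell Ranger 5.0.1, and the submitters' processing notes list 5.1. The deposited values are whole UMI counts without normalization.

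Genes found in more than 5 cells and cells of 200 or more genes whose mitochondrial share was no more than 25% were kept. Cells were gated by the mean of their scaled log marker levels (score of at least 0.3, ahead of the next class by 0.1). TA-TEC-like cells were set by a cycling score of 0.3 and thymocyte-like cells by a thymocyte score of 0.2, ahead of the other gates. The members and gene lists were chosen with earlier results of these data known, and the gate limits, the Mgp limit and the minimum of 30 cells after class sizes, marker levels and member levels had been seen under 4 settings. Doublets were not called. Cells with thymocyte and cTEC genes were kept apart.

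CPM is a gene's UMIs per 1000000 UMIs of the class in a library, with an exact Poisson 95% interval. Ratios carry the exact conditional binomial interval, and shares the exact Clopper-Pearson interval. UMI counts are molecules of pooled mice, so intervals and floors cover counting error only. The ratio procedure was run on simulated Poisson counts without variation between cells, mice or libraries, so this checked the counting intervals only. Named genes were the members, the 3 genes of the wider list with the largest rise and fall past the fold in progenitor-like and cTEC-like cells, the 5 genes most like Gstp1 (1 of them is not reported here), the marker and stress lists and Cd40. Gstp2, Gstp3 and Mgp were singled out after their values were seen. Gene positions are from GENCODE M21. Python 3.11.15 with numpy 2.4.6, scipy 1.17.1, pandas 2.3.3 and matplotlib 3.10.9, and edgeR 4.0.16 in R 4.3.3 for TMM factors, were used.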

Additional observations from a re-analysis of the deposited data

Results flagged for a closer look

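Gpx3 in progenitor-like cells moved in opposite directions with the antibody in the 2 genotypes: the log2 ratio of RANKL-Ab to Control was -1.44 in WT and 0.86 in Cd40-/- mice. The share of these cells with Gpx3 was within the range of that in thymocyte-like cells, and 92.6 to 100% of its UMIs came from the 10% of cells with the most. In cells with genes of both thymocytes and cTECs the Gpx3 ratios were -0.82 in WT and 4.15 in Cd40-/- mice, the latter from 22 UMIs in Cd40-/- Control. Gstp1 in cells that passed no gate had ratios of -0.66 in WT and 1.49 in Cd40-/- mice. These differences were not tested, since each condition has 1 library.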

How the results depend on the processing

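No paired analysis was possible because each condition has 1 library and the labels give no replicate numbers. The log2 ratio of Gstp1 between Cd40-/- RANKL-Ab and WT-Control stayed between 2.10 and 2.45 in progenitor-like and 1.88 and 2.03 in cTEC-like cells under the alternatives other than thinning. Thinned to 1000 UMIs it was 3.05, from 50 and 4 UMIs, and 1.35, from 71 and 10 UMIs. Of 974 member ratios to WT-Control under an alternative, 55 had the other sign, 20 of them under thinning. Among these, 4 were past 1.5-fold before thinning: Gstp1 in Cd40-/- Control cTEC-like (-0.51), Gstm1 in WT-RANKL-Ab tuft-like (0.057), Hmox1 in Cd40-/- Control CCL21+ mTEC-like (-0.0060) and Gstm2 in Cd40-/- RANKL-Ab cTEC-like cells (-0.48, from 10 and 5 UMIs). Gstp1 in WT-RANKL-Ab progenitor-like cells, at -0.28, turned to 0.66. Of the 974, 831 stayed within their counting interval and 139 moved out of it, beside these 4.

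For Cd40-/- RANKL-Ab against WT-Control, a fold of 2 left 1 member higher in progenitor-like and 1 in cTEC-like cells, and of the wider list 0 higher in both and, in CCL21+ mTEC-like cells, 2 higher and 6 lower. The mean over cells of CPM gave 2 members higher and 1 lower in progenitor-like and 1 higher in cTEC-like cells. At least 200 UMIs left 1 member lower in CCL21+ mTEC-like cells and 1 gene of the wider list higher in progenitor-like and 1 in cTEC-like cells, and no minimum beyond 1 UMI gave 1 member lower in cTEC-like cells. TMM factors gave 2 members higher in progenitor-like cells (without Mt2) and 1 lower in cTEC-like cells, and of the wider list 3 higher and 2 lower in progenitor-like and 2 lower in cTEC-like cells. Without the shared barcodes, an alternative chosen after seeing the data, 1 member was lower in cTEC-like cells, and of the wider list 1 was lower in progenitor-like and 2 in cTEC-like cells. The cause was not tested.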
